A study of Mus musculus with 16 samples.

Results

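Subunit genes of the mitochondrial respiratory chain and of the ATP synthase were examined in mouse brain 8 h after an injection of lipopolysaccharide (LPS) or saline. The members were the protein-coding genes whose mouse symbol begins with Ndufa, Ndufb, Ndufc, Ndufs, Ndufv, Uqcr, Cox4 to Cox8, or Atp5, which gave 88 of the 33289 gene identifiers in the table. They comprised 36 genes of complex I, 8 of complex III, 19 of complex IV, 16 of the ATP synthase (complex V) and 9 that share a prefix without being subunits, the complex I assembly factors Ndufaf1 to Ndufaf8 and Atp5s. The annotation used here holds 103 protein-coding genes that match the rule, 13 of them encoded in mitochondrial DNA; the table has 0 rows on the mitochondrial chromosome, so those 13 were not analysed here. All 88 members passed the filter on low values and were tested.

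RNA was sequenced from hemi-brains collected 8 h after injection. All mice were C57BL/6J, 3 to 4 months old, and perfused with PBS. There were 4 groups of 4 libraries: LPS in mice labelled Lcn2-/-, LPS in wild type mice, saline in mice labelled Lcn2-/- and saline in wild type mice. The series title puts the question as whether lipocalin-2, a secreted siderophore-binding protein made in acute inflammation and encoded by Lcn2, protects the inflamed brain. LPS is an outer membrane component of Gram-negative bacteria that activates innate immunity. The sources used here state neither the LPS dose nor how the Lcn2 allele was made. The hemi-brain mixes neurons, glia, vessels and choroid plexus, so fewer cells of a type and less RNA per cell cannot be told apart.

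Complex I takes electrons from NADH, complex III passes them from ubiquinol to cytochrome c, and complex IV hands them to oxygen. The proton gradient built on the way drives the ATP synthase, and neurons depend on this supply for ion pumping and synaptic transmission. Most subunits are encoded in the nucleus, and many of their promoters carry sites for nuclear respiratory factor 1 (NRF1), for the ETS factor GABP (also called NRF2) and for YY1. Some complex IV subunits exist as a common form and as a form restricted to heart and muscle, testis, lung or vascular mural cells.

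The values are the authors' normalized log2 RPKM (reads scaled to transcript length and to the library's total), printed here as RPKM for levels and as log2 differences for contrasts. Depth and counting error are unknown, because the values are normalized and no counts were analysed here. Nothing in the labels ties libraries to separate animals beyond one sample each, so a p-value reflects only how much these samples scatter, which may be technical. Lcn2 itself was read at 40.2, 34.1, 38.3 and 37.2 RPKM in the 4 LPS libraries labelled Lcn2-/- and at 71.5, 67.8, 66.7 and 82.7 RPKM in the 4 wild type LPS libraries. It stood at 0.132, 0.204, 0.351 and 0.247 RPKM in saline libraries labelled Lcn2-/- and at 0.0650, 0.0741, 0.204 and 0.137 RPKM in wild type saline libraries. The transcript was therefore present after LPS under the label Lcn2-/-, and these groups are called labelled Lcn2-/- throughout. Saline replicate 4 labelled Lcn2-/- stood apart from the other 15 libraries: it held 17112 genes at 0.5 RPKM or more, against 16372 to 16497 in the others, and a score of 56.9 on the second principal component, against -12.0 to 8.34. Neuron, astrocyte and oligodendrocyte markers were present in every library, with summed levels over 8 genes of at least 905, 581 and 802 RPKM.

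To show what the upstream regions look like, 5 promoters are printed: those of 3 members whose LPS response differed between the genotype labels whichever library was left out, and those of 2 members that fell after LPS under both labels. The sequences are RefSeq's for GRCm38.p6, the 250 bases before the annotated start on the gene's own strand, and 71 of the 88 members had an entry. Capitals mark matches, on either strand, to the letters CCGGAAG (a core ETS site), GCGCA followed by any base and GCGC (NRF1) or ATGGCGG (YY1). The Ndufa11 window (chr17:56717512-56717761, plus strand) holds an NRF1 match and the Ndufb5 window (chr3:32736813-32737062, plus strand) none. The Atp5j window before the downstream one of its 2 annotated starts (chr16:84834977-84835226, minus strand) holds a YY1 and an ETS match. The window before its upstream start (chr16:84835626-84835875, minus strand), which is not printed, holds none of the 3. The Uqcr11 window (chr10:80406822-80407071, minus strand) holds an ETS match and the Ndufa8 window (chr2:36049339-36049588, minus strand) an NRF1 match.
Ndufa11: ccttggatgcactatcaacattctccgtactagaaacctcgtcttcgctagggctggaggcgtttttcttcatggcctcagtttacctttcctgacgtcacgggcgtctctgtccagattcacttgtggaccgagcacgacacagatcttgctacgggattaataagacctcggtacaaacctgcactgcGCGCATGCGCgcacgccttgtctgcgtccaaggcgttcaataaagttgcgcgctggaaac
Ndufb5: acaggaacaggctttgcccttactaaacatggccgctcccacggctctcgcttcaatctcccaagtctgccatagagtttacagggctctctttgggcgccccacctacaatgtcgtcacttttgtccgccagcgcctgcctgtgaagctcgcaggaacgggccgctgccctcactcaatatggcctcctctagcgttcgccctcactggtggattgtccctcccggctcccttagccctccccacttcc
Atp5j: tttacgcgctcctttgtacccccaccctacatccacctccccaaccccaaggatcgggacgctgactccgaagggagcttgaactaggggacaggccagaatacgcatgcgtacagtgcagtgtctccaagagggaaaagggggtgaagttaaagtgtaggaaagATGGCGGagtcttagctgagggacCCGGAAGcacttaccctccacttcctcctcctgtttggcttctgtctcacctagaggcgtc
Uqcr11: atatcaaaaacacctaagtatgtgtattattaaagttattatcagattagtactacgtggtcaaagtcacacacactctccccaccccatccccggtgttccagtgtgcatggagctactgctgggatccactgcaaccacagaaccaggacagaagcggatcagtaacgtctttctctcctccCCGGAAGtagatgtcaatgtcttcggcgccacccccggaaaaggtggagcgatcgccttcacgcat
Ndufa8: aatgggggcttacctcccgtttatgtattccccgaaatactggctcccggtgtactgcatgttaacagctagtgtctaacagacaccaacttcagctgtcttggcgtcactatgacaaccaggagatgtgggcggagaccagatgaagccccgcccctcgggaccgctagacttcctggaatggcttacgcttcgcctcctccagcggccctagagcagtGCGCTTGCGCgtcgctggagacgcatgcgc

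Of the 71 members with an entry, 18.3% held the ETS letters in at least 1 of their windows, against 7.83% of all 27025 genes with an entry. The NRF1 letters were found for 16.9% of these members and 4.23% of all genes, and the YY1 letters for 7.04% and 2.58%. At least 1 of the 3 was found for 26 members, 36.6%, against 13.3% of all genes. The letters ACGTG, the core of the hypoxia response element, were as frequent among members, 18.3%, as among all genes, 18.5%. The 27025 genes were neither limited to those tested here nor matched to the members for GC content. A match says only that the letters are present, and members printed from both response classes carried them.

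Respiratory chain genes were among the abundant transcripts of this tissue. The median member stood at 46.4 RPKM, averaged on the log2 scale over the 16 libraries, and 66 of the 88 were at 16 RPKM or more. Ndufa4, a small subunit first assigned to complex I and now counted with complex IV, was the most abundant at 424 RPKM, and Cox7b2, a testis form of a complex IV subunit, the least at 0.780 RPKM. Among complex I genes the mean levels ran between 5.18 RPKM for Ndufab1, the mitochondrial acyl carrier protein, and 256 RPKM for Ndufb9, with a median of 45.3 RPKM. Complex III genes lay between 29.4 RPKM (Uqcrq) and 116 RPKM (Uqcr11), and ATP synthase genes between 4.52 RPKM (Atp5g2) and 227 RPKM (Atp5a1). The 12 common complex IV genes had a median of 204 RPKM, with a lowest of 31.3 RPKM (Cox5b). The assembly factors and Atp5s were lower, with a median of 11.3 RPKM.

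The per-library means were close together, and most of the spread lay in the saline groups. Averaged over the 36 complex I genes, the level was 5.42 to 5.46 on the log2 RPKM scale in LPS libraries labelled Lcn2-/-, 5.35 to 5.39 in wild type LPS libraries, 5.37 to 5.41 in saline libraries labelled Lcn2-/- and 5.38 to 5.55 in wild type saline libraries. Over the 16 ATP synthase genes the means were 5.87 to 5.92 in LPS libraries labelled Lcn2-/- and 5.79 to 5.81 in wild type LPS libraries, against 5.84 to 5.93 and 5.84 to 5.97 in the matching saline groups. The LPS groups of both labels were tight and did not overlap for either complex, whereas the saline groups did. The same held over the 12 common complex IV genes, with LPS means of 7.15 to 7.18 labelled Lcn2-/- and 7.10 to 7.14 in wild type. It also held over all 88 members (5.23 to 5.27 and 5.19 to 5.21). Over the 8 complex III genes the LPS groups overlapped. Wild type saline replicates 3 and 4 were both above replicates 1 and 2 in 63 of the 88 members. The median standard deviation of a member within its group was 0.043 and 0.046 on the log2 scale in the LPS groups (labelled Lcn2-/- and wild type) but 0.12 and 0.082 in the saline groups.

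**Figure D1:**
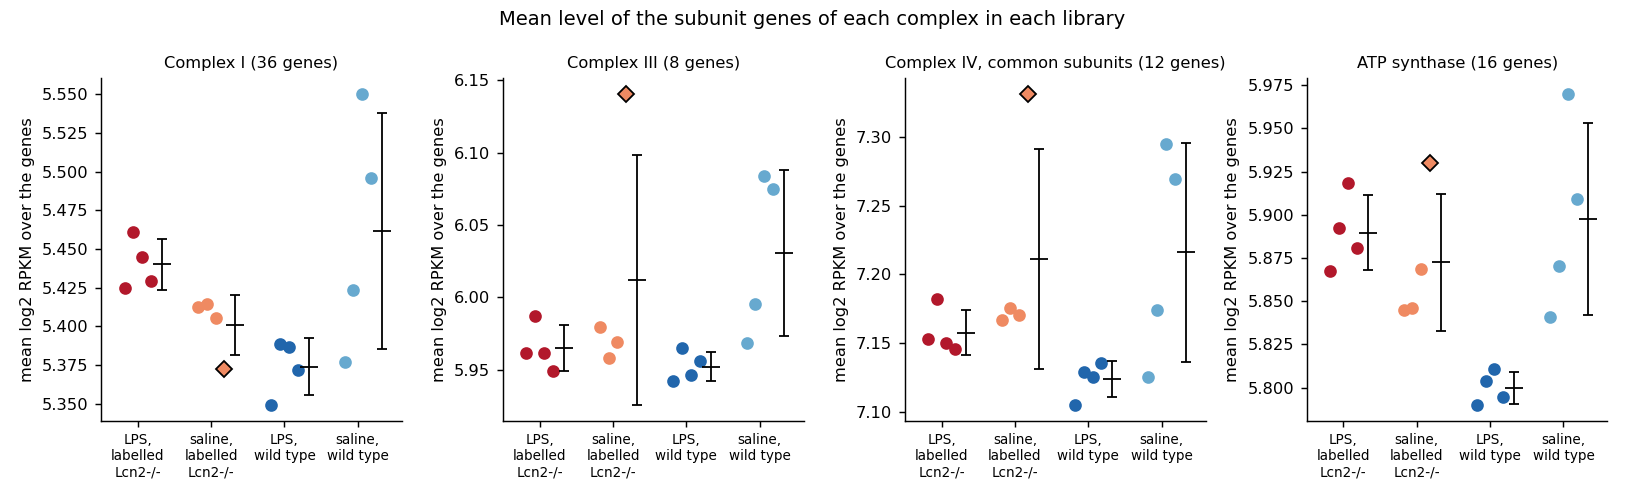
Mean log2 RPKM over the genes of each complex (y axis) in each of the 16 libraries (points), with the group mean and SD (n = 4) as bars and saline replicate 4 labelled Lcn2-/- as an outlined diamond. The 2 LPS groups do not overlap for complex I (5.42 to 5.46 labelled Lcn2-/-, 5.35 to 5.39 wild type), common complex IV or the ATP synthase. They overlap for complex III. Wild type saline spreads most for complex I (5.38 to 5.55).

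In wild type brain, LPS lowered part of the set slightly and raised none of it. Of the 88 members, 14 fell and 0 rose (limma on all 17349 genes tested, two-sided, Benjamini-Hochberg adjusted p under 0.05), against 13.9% and 11.4% of all genes tested that fell and rose. The 14 make up 15.9% of the members, near the background. The drift was wider than the calls: 79 of 88 estimates lay below 0, and the median log2 difference was -0.10, against -0.025 over all genes. Every LPS library was below every saline library in 22 members and above in 0, against 18.6% and 13.8% of all genes. By complex, 5 of 36 complex I genes fell, 1 of 8 in complex III, 4 of 19 in complex IV, 1 of 16 in the ATP synthase and 3 of the 9 others, and the medians of complexes I, III, IV and V were -0.10, -0.11, -0.10 and -0.11.

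Uqcr11, a small complex III subunit, was at 117, 111, 111 and 108 RPKM in wild type LPS libraries and at 119, 121, 133 and 131 RPKM in wild type saline libraries. The groups did not overlap, and the difference was -0.17 ± 0.046 (log2, SE, n = 4 each, limma adjusted p = 0.01). With GC and length trends removed it was -0.091 and not called (adjusted p = 0.184). Atp5g1, one of the genes for the proton-carrying c ring of the ATP synthase, was at 11.1, 10.8, 10.99 and 10.4 RPKM after LPS and 11.8, 12.1, 13.2 and 12.6 RPKM after saline in wild type brain, again without overlap. It fell by 0.20 on the log2 scale (limma adjusted p = 0.008). Ndufa8, an accessory complex I subunit facing the intermembrane space, stood at 72.5, 70.6, 73.6 and 71.4 RPKM after LPS and 74.4, 77.3, 82.8 and 80.3 RPKM after saline in wild type brain. The ranges were separate by a narrow margin, with a difference of -0.13 ± 0.039 and an adjusted p of 0.0246 by limma. With GC and length trends removed it was -0.093 and not called (adjusted p = 0.164), and the call was lost in 4 of the 16 fits that left out 1 library.

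The wild type count rested on a few libraries. Without saline replicate 4 labelled Lcn2-/-, which enters this contrast only through the shared estimate of spread, 36 members fell. These are 40.9% of the members, against 19.8% of all genes called lower in that fit. Without wild type saline replicate 3 or 4 the count was 5 or 7, with 1927 or 1954 of all genes called lower. Without wild type LPS replicate 1 or 4 it was 9 or 6, with 2072 or 1933 of all genes. With every library 2409 of all genes were lower. The count of members that rose was 0 in every case. The calls of 5 genes (Atp5g1, Cox6b2, Ndufa11, Ndufa4l2 and Uqcr11) held whichever single library was left out.

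Under the label Lcn2-/-, LPS split the set: 16 members rose and 13 fell, against 20.7% and 27.7% of all genes tested. These are 18.2% and 14.8% of the members, so neither share exceeded the background, and the median difference was -0.0095, against -0.028 over all genes. In 19 members every LPS library was above every saline library and in 15 every one was below, against 18.6% and 23.8% of all genes. The genes that rose were 9 of complex I, 5 of the ATP synthase and 1 each of complexes III and IV. Those that fell were 5 of complex I, 2 of complex III, 4 of complex IV and 2 assembly factors or other, and 0 of the 16 ATP synthase genes. Of the 7 core subunits of complex I, those conserved from bacteria, 3 rose and 0 fell.

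**Figure D2:**
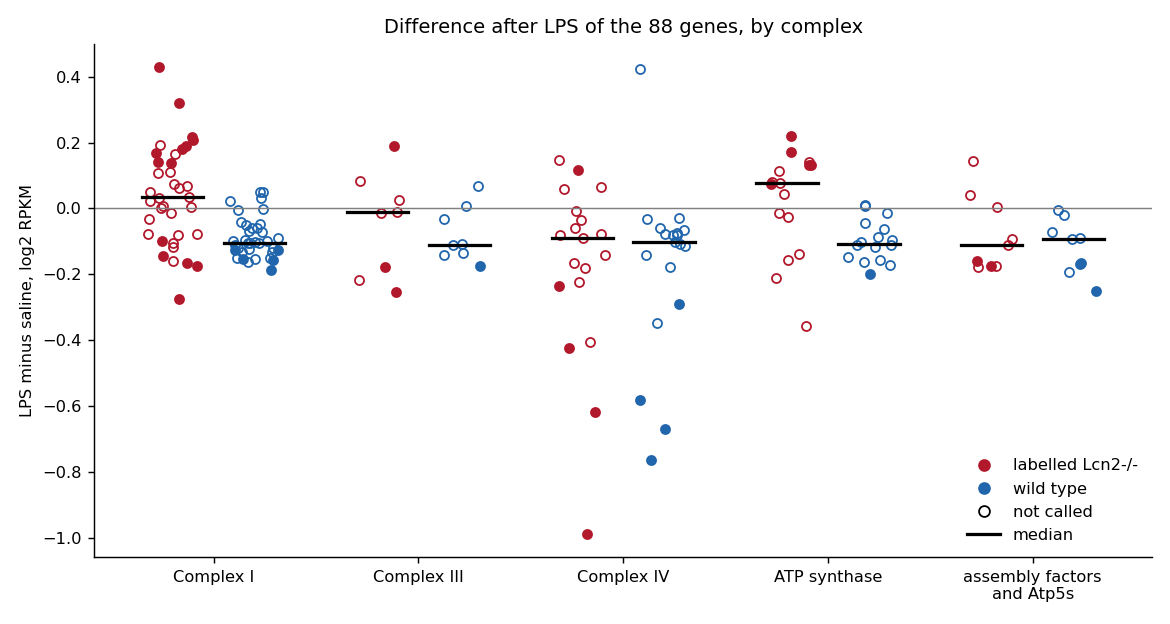
Log2 difference between LPS and saline (y axis) of each of the 88 genes by complex, in libraries labelled Lcn2-/- (red, left of each pair) and wild type (blue, right), with filled points for genes called by limma and black bars for medians. Wild type medians lie near -0.10 in complexes I, III, IV and V, while those labelled Lcn2-/- are 0.034 for complex I and 0.076 for the ATP synthase.

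Ndufb5, an accessory subunit of the complex I membrane arm (ENSMUSG00000027673, chr3:32736990-32751566, plus strand), was at 28.8, 29.0, 29.6 and 29.4 RPKM in LPS libraries labelled Lcn2-/- and 24.1, 24.3, 25.1 and 20.3 RPKM in the matching saline libraries. All 4 LPS values were above all 4 saline values, and the log2 difference was 0.32 ± 0.058 (SE, n = 4 each, limma adjusted p = 0.00034). Ndufa10, another membrane arm subunit, was at 36.8, 39.8, 39.8 and 38.5 RPKM after LPS and 35.1, 34.5, 34.1 and 29.7 RPKM after saline under the label. Its difference of 0.22 ± 0.045 came with an adjusted p of 0.000903 by limma. Ndufs3, a core subunit of the module that reduces ubiquinone, was at 19.0, 18.3, 19.0 and 17.7 RPKM after LPS and 16.5, 16.6, 16.6 and 14.5 RPKM after saline, a difference of 0.21 ± 0.048 (limma adjusted p = 0.0022). Each of these 3 genes had its lowest saline value in replicate 4. Uqcrc1, a core protein of complex III, rose by 0.19 on the log2 scale (limma adjusted p = 0.0153), with 40.1, 42.2, 41.3 and 39.9 RPKM after LPS and 37.7, 38.6, 37.7 and 30.1 RPKM after saline. Here too replicate 4 of the saline group stood below the other 3, and without it the rise was 0.11. With GC and length trends removed Uqcrc1 was at 0.12 and not called (adjusted p = 0.0734).

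Among the genes that fell under the label, Ndufa1, a small X-linked accessory subunit of complex I, was at 116, 111, 111 and 112 RPKM after LPS and 129, 129, 129.7 and 159.9 RPKM after saline. The groups did not overlap, and the highest saline value was that of replicate 4. The difference was -0.27 ± 0.075 (SE, n = 4 each, limma adjusted p = 0.00722), and -0.20 with an adjusted p of 0.0155 without that library. Uqcr11 was at 113, 105, 104 and 107 RPKM after LPS and 124, 116, 129 and 116 RPKM after saline, and Ndufa8 at 68.5, 70.6, 69.8 and 68.2 and 76.3, 73.9, 73.6 and 82.8 RPKM. Both fell, by 0.18 and 0.15 on the log2 scale (limma adjusted p = 0.00507 and 0.00632), calls that held with GC and length trends removed, unlike those in wild type brain; their interactions were not called. Ndufaf7, a methyltransferase needed to assemble complex I, fell by 0.17 (limma adjusted p = 0.00393). The genes that fell under both labels were Atp5s, Cox6b2, Ndufa4l2, Ndufa8 and Uqcr11, which are 35.7% of the 14 in wild type and 38.5% of the 13 labelled Lcn2-/-. The matching shares over all genes tested were not computed, so this overlap cannot be set against a background.

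Saline replicate 4 moved with these calls. It was the lowest of its group in 14 of the 16 genes that rose and the highest in 10 of the 13 that fell, against 39 and 41 of all 88 members. Without it 15 members rose and 11 fell, with 20.7% and 28.1% of all genes called higher and lower. The rises of 10 genes held whichever single library was left out, and those of 7 (Atp5f1, Atp5j, Ndufa10, Ndufa11, Ndufb5, Ndufb7 and Ndufs3) also when trends with GC content and length were removed. The falls of 8 genes (Cox4i2, Cox6b2, Ndufa1, Ndufa4l2, Ndufa8, Ndufa9, Ndufaf7 and Uqcr11) held under both. With the GC and length trends removed the split was 10 higher and 17 lower, with 3711 and 4961 of all genes. Without LPS replicate 3 or 4 labelled Lcn2-/- the counts were 10 higher or 8 lower, with 3131 higher or 4376 lower of all genes.

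Between the genotype labels after saline, 0 of 88 members were called, against 0.0346% of all genes higher and 0.0115% lower; 1 member, Cox6a2, had groups that did not overlap, against 2.84% of all genes above and 2.35% below. After LPS, 10 members were higher in libraries labelled Lcn2-/- than in wild type and 0 lower, against 7.04% and 8.74% of all genes tested. Every library labelled Lcn2-/- was above every wild type library in 26 members and below in 2, against 13.3% and 14.7% of all genes. The 10 were Ndufa10, Ndufa11, Ndufb5, Ndufs3 and Ndufv3 of complex I, Cox6c of complex IV, and Atp5c1, Atp5g1, Atp5j and Atp5o of the ATP synthase. The median difference over members was 0.045, over complex I 0.072 and over the ATP synthase 0.090, against -0.0098 over all genes.

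The count after LPS depended on the spread of the whole data set. Without saline replicate 4 labelled Lcn2-/- it was 25 higher and 1 lower, with 13.7% and 16.1% of all genes called, and in a fit of the 2 LPS groups alone 28 higher and 3 lower. Leaving out LPS replicate 2 or 3 labelled Lcn2-/- gave 4 or 3 higher, with 841 or 725 of all genes higher. Leaving out wild type LPS replicates 1, 2, 3 or 4 gave 5, 5, 4 or 6, with 826, 903, 811 or 1042 of all genes. With every library 1222 of all genes were higher. The calls of Atp5j, Ndufa11 and Ndufb5 held whichever library was left out.

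The response to LPS itself was compared between the labels as an interaction, the LPS difference labelled Lcn2-/- minus that in wild type. It was positive and called for 9 members, Ndufa11, Ndufb5, Ndufb7, Ndufb10 and Ndufv2 of complex I, Cox4i1 of complex IV and Atp5e, Atp5j and Atp5o of the ATP synthase, and negative for 0, against 3.9% and 4.92% of all genes tested (8.82% either way). The 9 are 10.2% of the members. The median interaction was 0.079 over members, 0.15 over complex I and 0.12 over the ATP synthase, against -0.011 in complex III and 0.012 over the 12 common complex IV genes and -0.0026 over all genes. Without saline replicate 4 labelled Lcn2-/- the count was 18 higher and 0 lower, with 6.03% and 7.04% of all genes called. In that fit the median interaction was 0.13 over complex I and 0.15 over the ATP synthase. It was 0.057 in complex III and 0.063 over the 12 common complex IV genes, against -0.0076 over all genes. The lower medians of complex III and common complex IV thus depended in part on that library.

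**Figure D3:**
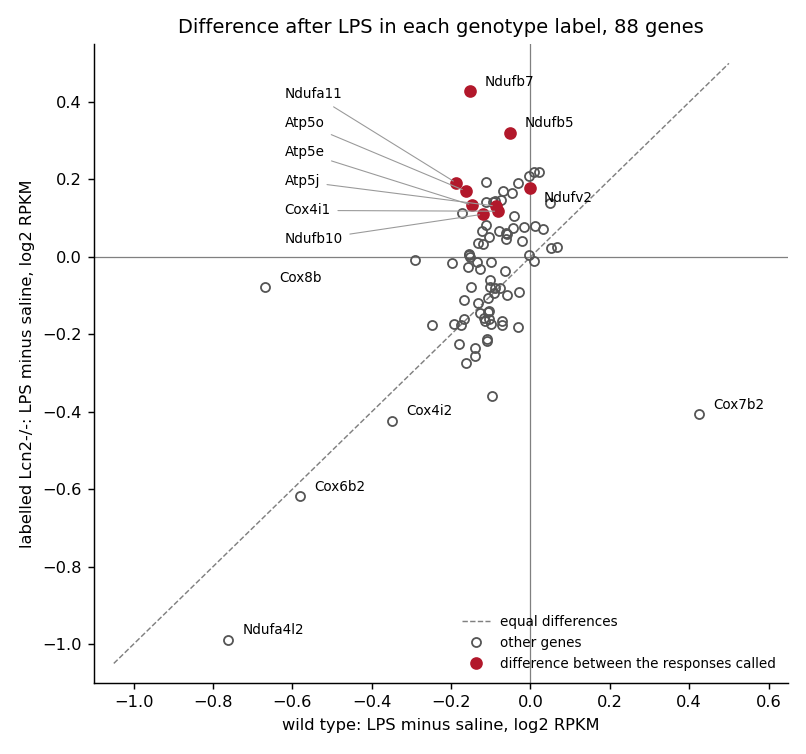
Log2 difference between LPS and saline in libraries labelled Lcn2-/- (y axis) against that in wild type (x axis) for the 88 genes; red points are the 9 with a called interaction, and the dashed line marks equal differences. All 9 lie above the line, and Ndufa4l2 is the lowest under both labels (-0.99 labelled Lcn2-/-, -0.76 wild type).

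Ndufa11, an accessory subunit that holds the complex I membrane arm together (ENSMUSG00000002379, chr17:56717767-56722141, plus strand), moved in opposite directions. It was at 21.0, 21.1, 21.0 and 21.6 RPKM in LPS libraries labelled Lcn2-/- and 19.0, 19.0, 20.3 and 16.1 RPKM in the saline libraries of that label, and at 18.1, 18.1, 17.6 and 17.6 RPKM in wild type LPS libraries and 20.0, 19.9, 20.5 and 20.9 RPKM in wild type saline libraries. The LPS groups of the 2 labels were separate, and within each label LPS and saline did not overlap. It rose by 0.19 under the label (limma adjusted p = 0.00659) and fell by 0.19 in wild type (adjusted p = 0.0135), an interaction of 0.38 ± 0.073 (SE, limma adjusted p = 0.00794). Without saline replicate 4, the lowest of its group, the rise was 0.12 and the interaction 0.31 (adjusted p = 0.000561).

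Ndufb5 was at 24.1, 24.2, 24.7 and 24.9 RPKM in wild type LPS libraries and 23.8, 24.0, 27.7 and 26.2 RPKM in wild type saline libraries, groups that overlapped, next to the rise under the label given above. Its interaction was 0.37 ± 0.082 (limma adjusted p = 0.016) and 0.30 without saline replicate 4. Ndufb7, a membrane arm subunit with paired cysteines imported into the intermembrane space, had the largest interaction of the 9 called. It was at 16.5, 19.1, 20.1 and 18.9 RPKM in LPS libraries labelled Lcn2-/- against 14.9, 16.4, 15.3 and 9.74 RPKM after saline, and at 14.4, 15.1, 14.6 and 14.0 RPKM in wild type LPS libraries against 15.2, 15.1, 18.1 and 16.3 RPKM after saline. Saline replicate 4, at 9.74 RPKM, was far below the rest. The interaction of 0.58 ± 0.17 (limma adjusted p = 0.0486) was 0.41 without that library (adjusted p = 0.0109), and it lost its call in 12 of the 16 fits that left out 1 library, with adjusted p up to 0.102.

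Ndufv2, an iron-sulphur core subunit of the NADH-oxidizing module, was at 46.1, 48.3, 47.9 and 49.0 RPKM after LPS and 44.2, 41.0, 40.6 and 43.1 RPKM after saline under the label. In wild type it was at 42.9, 44.5, 46.7 and 46.2 RPKM after LPS and 43.8, 44.1, 47.3 and 45.3 RPKM after saline. Only the labelled pair was separate, with a rise of 0.18 (limma adjusted p = 0.00104) and an interaction of 0.18 ± 0.053 (adjusted p = 0.0445). Saline replicate 4 lay within its group for this gene, and without it the interaction was 0.19. Its call was lost in 11 of the 16 fits without 1 library, and with GC and length trends removed (0.14, adjusted p = 0.0864), as was that of the rise (0.072, adjusted p = 0.107). Ndufb10, another membrane arm subunit, had an interaction of 0.23 ± 0.068 (limma adjusted p = 0.0479), while neither label's own LPS difference was called.

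**Figure D4:**
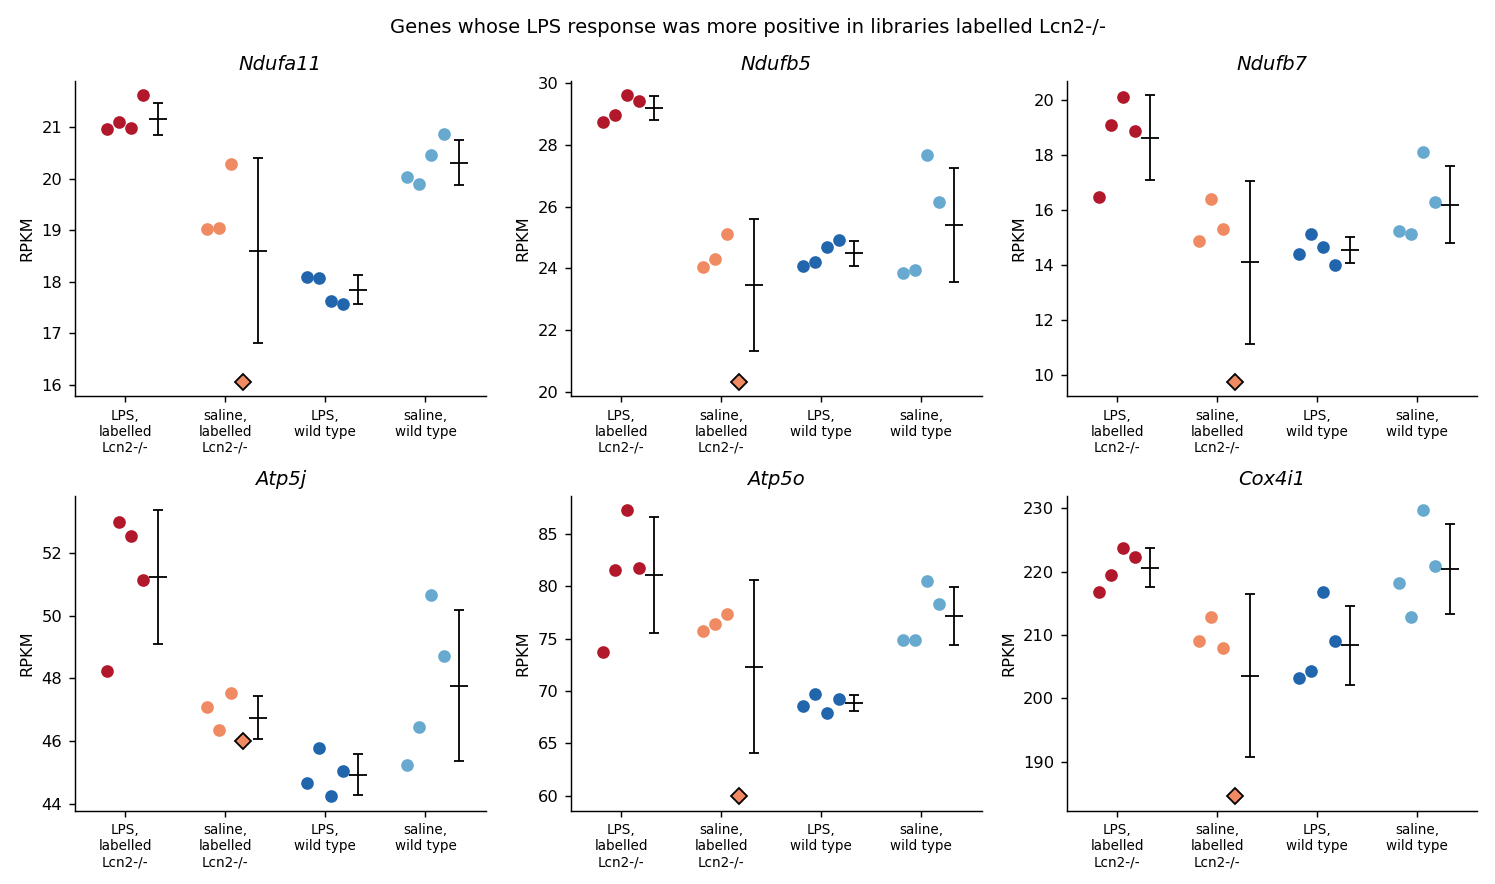
RPKM (y axes, which do not start at 0) of 6 genes with a called interaction in each library (points), with the group mean and SD (n = 4) as bars and saline replicate 4 labelled Lcn2-/- as an outlined diamond. In all 6 the LPS libraries labelled Lcn2-/- average above the wild type LPS libraries, and the diamond is the lowest point of its group.

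In the ATP synthase, Atp5j, coupling factor 6 of the stalk that anchors the catalytic head (ENSMUSG00000022890, chr16:84827866-84835625, minus strand), was at 48.2, 53.0, 52.5 and 51.1 RPKM after LPS and 47.1, 46.4, 47.5 and 46.0 RPKM after saline under the label. Wild type libraries were at 44.7, 45.8, 44.2 and 45.0 RPKM after LPS and 45.2, 46.4, 50.7 and 48.7 RPKM after saline. The labelled LPS group lay above each of the other 3 groups except for wild type saline, with which it overlapped. The rise was 0.13 ± 0.037 (limma adjusted p = 0.00791) and the interaction 0.22 ± 0.052 (adjusted p = 0.0202), close to the 0.21 without saline replicate 4. Atp5o, the oligomycin sensitivity protein at the tip of the same stalk, was at 73.8, 81.6, 87.3 and 81.7 RPKM after LPS and 75.7, 76.3, 77.3 and 59.9 RPKM after saline under the label. Its wild type levels were 68.6, 69.7, 67.9 and 69.2 RPKM after LPS and 74.9, 74.9, 80.5 and 78.3 RPKM after saline. The wild type pair was separate and the labelled pair overlapped. Its interaction was 0.33 ± 0.096 (limma adjusted p = 0.0434), and the rise under the label, 0.17, was 0.082 with an adjusted p of 0.119 once saline replicate 4, at 59.9 RPKM, was left out. The Atp5o values are uncertain, since the annotation holds another gene of the same symbol that shares 243 exonic bases with it on the same strand.

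Atp5e, the epsilon subunit of the rotating central stalk, was at 50.9, 49.2, 50.2 and 48.5 RPKM after LPS and 45.2, 44.5, 47.9 and 43.7 RPKM after saline under the label. In wild type it was at 43.5, 43.2, 48.5 and 44.0 RPKM after LPS and 47.2, 45.3, 53.7 and 52.5 RPKM after saline. The labelled pair was separate and the wild type pair overlapped. The interaction was 0.28 ± 0.074 (limma adjusted p = 0.0311), and the call was lost in 7 of the 16 fits that left out 1 library. The rise under the label was lost in 10 of the 16 and with GC and length trends removed (adjusted p = 0.467). The other ATP synthase genes that rose under the label were Atp5c1, the gamma subunit that turns inside the head, by 0.074, and Atp5f1, subunit b of the peripheral stalk, by 0.22 (limma adjusted p = 0.0279 and 0.00768). With GC and length trends removed the estimate for Atp5c1 was -0.016, and without saline replicate 4 the rise of Atp5f1 was 0.14. The alpha subunit Atp5a1, the most abundant, was at 234 and 226 RPKM on average in the LPS groups (labelled Lcn2-/- and wild type), against 222 and 225 RPKM in the saline groups.

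In complex IV, Cox4i1, the common form of the largest nuclear subunit (ENSMUSG00000031818, chr8:120668222-120674207, plus strand), was at 217, 219.6, 224 and 222 RPKM after LPS and 209, 213, 208 and 185 RPKM after saline under the label. Wild type libraries were at 203, 204, 217 and 209 RPKM after LPS and 218, 213, 229.7 and 221 RPKM after saline. The labelled pair was separate and the wild type pair overlapped. The rise of 0.12 (limma adjusted p = 0.0252) was 0.071 without saline replicate 4, and the interaction was 0.20 ± 0.057 (adjusted p = 0.0433) and 0.15 without it. Ndufa4 was at 422, 422, 415 and 402 RPKM after LPS and 422, 415, 422 and 474 RPKM after saline under the label, and at 408, 422, 402 and 408 and 429.6, 429.6, 455 and 446 RPKM in wild type. It was not called in any contrast, although the wild type LPS libraries all lay below the wild type saline libraries.

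Of the 9 interaction calls, those of Ndufa11, Ndufb5 and Atp5j held in all 16 fits that left out 1 library and with GC and length trends removed. The other 6 lost the call in 7 to 13 of the 16, and Ndufv2, Cox4i1 and Atp5o also with those trends removed (adjusted p = 0.0864, 0.0546 and 0.0727). The counts were 3, 3 and 5 without LPS replicates 2, 3 and 4 labelled Lcn2-/-, 3, 3 and 4 without wild type LPS replicates 1, 2 and 4, and 3 each without wild type saline replicate 3 or 4. In the same order, 415, 357 and 585, then 348, 443 and 581, then 372 and 397 of all genes were called higher. With every library 677 were.

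Complex IV has 7 genes here for forms with restricted expression and 12 common genes. In wild type 4 of the 7 fell after LPS, Ndufa4l2, Cox6b2, Cox7a1 and Cox8b, and under the label 3, Ndufa4l2, Cox6b2 and Cox4i2, and 0 rose, against 13.9% and 27.7% of all genes tested that fell in wild type and under the label. Of the 12 common genes, 0 were called in wild type, and under the label Cox4i1 rose and Cox7a2 fell. The medians over the 7 were -0.35 in wild type and -0.41 under the label, against -0.081 and -0.070 over the 12; the difference between these sets was not tested. Under the label Cox7a1 and Cox8b, at -0.0075 and -0.078, lay near or above the median of the common genes, and Cox7b2 had an estimate of 0.42 in wild type.

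Ndufa4l2, a hypoxia-inducible relative of Ndufa4 that lowers complex I activity and is enriched in brain pericytes (ENSMUSG00000040280, chr10:127514967-127517154, plus strand), was at 1.34, 2.04, 1.51 and 1.20 RPKM after LPS and 2.56, 3.20, 3.49 and 2.68 RPKM after saline under the label. Its wild type levels were 2.05, 1.95, 2.01 and 1.43 RPKM after LPS and 3.32, 3.41, 3.01 and 2.79 RPKM after saline. Neither pair overlapped. The differences were -0.99 ± 0.15 under the label and -0.76 ± 0.15 in wild type (SE, limma adjusted p = 9.16e-05 and 0.0016), the largest falls among the members, and the interaction of -0.23 ± 0.22 was not called. Per length, Ndufa4l2 was read at 0.366% and 0.454% of Ndufa4 after LPS (labelled Lcn2-/- and wild type), against 0.692% and 0.714% after saline.

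Cox4i2, the lung and mural cell form of Cox4i1, was at 1.45, 1.74, 1.53 and 1.85 RPKM after LPS and 2.09, 2.24, 2.45 and 2.01 RPKM after saline under the label. In wild type it was at 2.53, 1.60, 1.98 and 1.62 RPKM after LPS and 2.48, 2.06, 2.52 and 2.66 RPKM after saline. Only the labelled pair was separate: the differences were -0.42 ± 0.13 under the label (limma adjusted p = 0.0157) and -0.35 ± 0.13 in wild type (adjusted p = 0.0671), an interaction of -0.075 ± 0.19. Cox6b2, a testis form, was at 1.62, 2.09, 2.47 and 1.81 RPKM after LPS and 2.57, 3.41, 2.49 and 3.85 RPKM after saline under the label, and at 1.88, 2.14, 2.44 and 1.70 and 2.84, 2.97, 2.91 and 3.38 RPKM in wild type. Both pairs were separate, with falls of 0.62 and 0.58 on the log2 scale (limma adjusted p = 0.00397 and 0.0106).

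Cox8b, a heart and muscle form, was at 1.67, 1.93, 1.98 and 1.28 RPKM after LPS and 1.55, 1.83, 2.74 and 1.30 RPKM after saline under the label, groups that overlapped. Wild type libraries were at 1.70, 1.24, 1.72 and 1.58 RPKM after LPS and 2.57, 1.90, 2.46 and 3.02 RPKM after saline, a separate pair with a difference of -0.67 ± 0.21 (limma adjusted p = 0.0261). The estimate under the label was -0.078, and the interaction, 0.59 ± 0.29, was not called (adjusted p = 0.198). Cox7a1, of the same tissues, fell by 0.29 in wild type (limma adjusted p = 0.0221), with an estimate of -0.0075 under the label. Cox6a2, another heart and muscle form, and Cox7b2 were not called in any contrast. The calls of Cox8b and Cox7a1 were lost without any 1 of 5 and 4 wild type libraries, among them wild type LPS replicate 4 and wild type saline replicates 3 and 4, with adjusted p up to 0.0876 and 0.0683.

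Mural cell markers moved alongside. The summed level of 8 pericyte markers was 50.0 to 57.1 RPKM in LPS libraries labelled Lcn2-/- and 54.4 to 56.3 RPKM in wild type LPS libraries, against 67.4 to 70.7 and 69.4 to 72.4 RPKM in the matching saline groups. Of the 8, 4 fell and 0 rose under the label and 4 fell and 1 (Kcnj8) rose in wild type; Rgs5, a regulator of G protein signalling in pericytes, fell by 0.26 and 0.27 (limma adjusted p = 0.000608 and 0.000998). Of 5 smooth and striated muscle markers tested, 4 fell under each label, and 8 endothelial markers summed to 51.1 to 61.6 and 58.1 to 64.5 RPKM after LPS (labelled Lcn2-/- and wild type), against 67.2 to 79.4 and 80.4 to 89.3 RPKM after saline. The endothelial list did not move one way: 1 rose and 5 fell under the label, 2 rose and 5 fell in wild type, and Cdh5, a junction cadherin, rose by 1.99 and 1.21 (limma adjusted p = 6.88e-11 and 4.28e-08). Over all genes tested 20.7% rose and 27.7% fell under the label, and 11.4% rose and 13.9% fell in wild type. Higd1b, a pericyte-enriched protein that associates with complex IV, fell by 1.03 and 0.45 (labelled Lcn2-/- and wild type, limma adjusted p = 1.08e-05 and 0.0172). The part of these markers in the falls of Ndufa4l2, Cox4i2 and the other restricted forms was not tested.

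**Figure D5:**
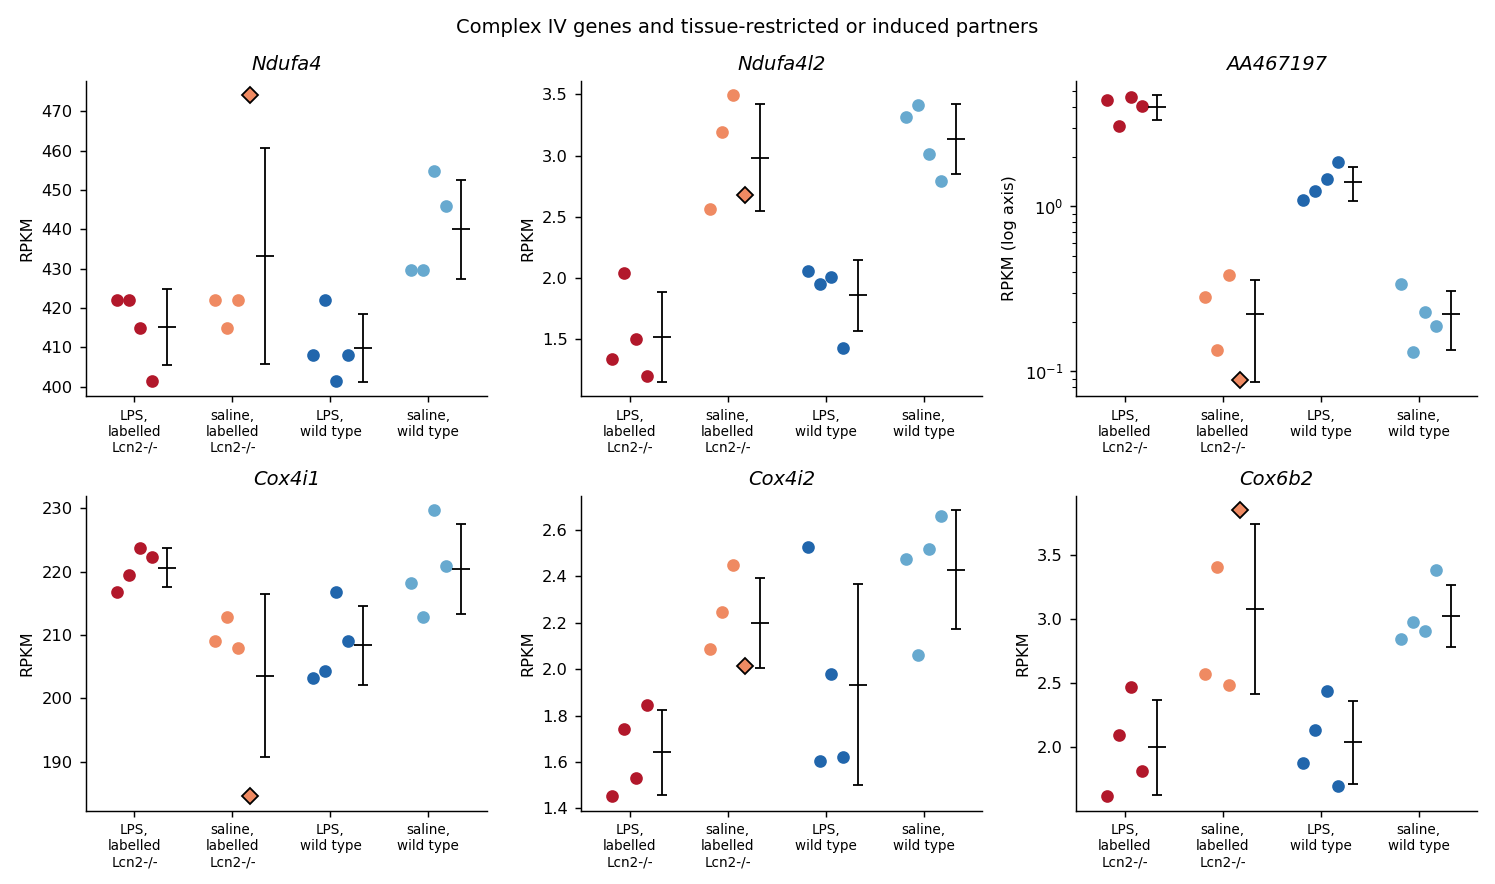
RPKM of Ndufa4, Cox4i1 and 4 restricted or induced partners in each library (points; y axes do not start at 0 and that of AA467197 is logarithmic), with the group mean and SD (n = 4) as bars and saline replicate 4 labelled Lcn2-/- as an outlined diamond. Ndufa4l2 and Cox6b2 are lower after LPS than after saline under both labels without overlap, and AA467197 is higher.

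AA467197, a small mitochondrial paralogue of Ndufa4 (also called NMES1) that inflammatory stimuli induce in macrophages, is not a member by symbol but was listed with the modifiers of the chain. It was at 4.43, 3.06, 4.57 and 4.03 RPKM after LPS and 0.283, 0.134, 0.384 and 0.0890 RPKM after saline under the label. Its wild type levels were 1.10, 1.23, 1.46 and 1.84 RPKM after LPS and 0.337, 0.131, 0.229 and 0.188 RPKM after saline. All 8 saline values lie under the filter of 0.5 RPKM, so the gene was kept only through its LPS libraries, and its LPS difference is a description with no test: 2.65 and 1.40 on the scale of log2(RPKM + 0.5) (labelled Lcn2-/- and wild type). After LPS it was higher by 1.52 ± 0.38 in libraries labelled Lcn2-/- than in wild type (limma adjusted p = 0.0148), with no overlap. Per length it was read at 0.970% and 0.344% of Ndufa4 after LPS (labelled Lcn2-/- and wild type), against 0.0522% and 0.0504% after saline. Acod1, which makes itaconate, an inhibitor of succinate dehydrogenase, was at 1.26, 1.35, 2.47 and 1.60 RPKM in LPS libraries labelled Lcn2-/- and 0.232, 0.271, 0.244 and 0.478 RPKM in wild type LPS libraries, against at most 0.112 RPKM in any saline library.

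Of the 9 assembly factors and other genes matched by prefix, 3 fell in wild type and 2 under the label, against 13.9% and 27.7% of all genes tested. In wild type Ndufaf2, Ndufaf4 and Atp5s fell, by 0.25, 0.17 and 0.17, and under the label Ndufaf7 and Atp5s, by 0.17 and 0.16, and 0 of the 9 had a called interaction by limma. The Atp5s estimate under the label was -0.10 without saline replicate 4 (adjusted p = 0.0899), and its wild type call was lost in 13 of the 16 fits that left out 1 library. The wild type calls of Ndufaf2 and Ndufaf4 were lost in 5 and 6 of the 16. Of 8 further complex I assembly genes tested, 1 rose in wild type and 1 rose and 1 fell under the label: Foxred1 rose by 0.17 and 0.13 (labelled Lcn2-/- and wild type), and Tmem126b fell by 0.23 under the label (limma adjusted p = 0.0066). The wild type call of Foxred1 was lost with GC and length trends removed (adjusted p = 0.0673). Of 25 genes for the assembly of complexes III and IV, 4 rose and 5 fell under the label, and 2 rose and 3 fell in wild type. These are 16% and 20.0% under the label, against 20.7% and 27.7% of all genes, and 8% and 12% in wild type, against 11.4% and 13.9%, so none exceeded the background. Coa6, a copper delivery factor for complex IV, fell by 0.44 under the label and 0.19 in wild type (limma adjusted p = 2.27e-05 and 0.0291), and Cox20, a chaperone of a mitochondrially encoded subunit, by 0.29 and 0.15 (adjusted p = 0.00021 and 0.0354). The wild type calls of Coa6 and Cox20 were lost in 4 and 5 of the 16 fits that left out 1 library. Uqcc1, a complex III assembly factor, rose by 0.27 and 0.23 (adjusted p = 6.75e-05 and 0.000373). Of the 5 assembly and inhibitor genes of the ATP synthase, 0 were called under limma in any contrast.

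The neighbouring parts of the chain gave a mixed picture. Of 8 complex II genes, 2 rose and 1 fell under the label, and 1 rose and 1 fell in wild type. Sdhaf1, which inserts iron-sulphur clusters into complex II, rose by 0.30 and 0.17 (limma adjusted p = 0.000748 and 0.0443), but the wild type call was lost in 10 of the 16 fits that left out 1 library and with GC and length trends removed (0.115, adjusted p = 0.166). Sdhaf3 had an interaction of 0.39 ± 0.1 (limma adjusted p = 0.03), lost in 5 of the 16. Cycs, cytochrome c, rose by 0.41 under the label (adjusted p = 0.00878), with an estimate of 0.026 in wild type and an interaction of 0.38 ± 0.16 that was not called. Of 15 genes for mitochondrial DNA maintenance and transcription, 3 rose and 3 fell under the label and 1 fell in wild type. These are 20%, 20% and 6.67%, and none exceeded the share of all genes. Mterf4, which acts in mitochondrial ribosome assembly, fell by 0.51 and 0.62 (limma adjusted p = 1.81e-07 and 2.82e-08). Lrpprc and Slirp, partners that stabilize mitochondrial mRNA, rose by 0.37 and 0.25 under the label (adjusted p = 0.00164 and 0.000567).

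Of 10 genes for PGC-1 coactivators and the factors whose sites were searched in the promoters, 2 rose and 2 fell under the label and 0 were called in wild type by limma. Under the label these are 20% each way, against 20.7% and 27.7% of all genes that rose and fell. Yy1 fell by 0.32 under the label (limma adjusted p = 5.66e-05), with an estimate of -0.028 in wild type and an interaction of -0.29 ± 0.067 (adjusted p = 0.0184) that was not called with GC and length trends removed (-0.23, adjusted p = 0.0562). Of the GABP subunits, Gabpb1 rose by 0.31 and Gabpa fell by 0.16 under the label (adjusted p = 0.000683 and 0.0241). Nrf1, the gene of nuclear respiratory factor 1, rose by 0.21 (adjusted p = 0.0405), a call lost without LPS replicate 1, 2 or 3 or saline replicate 4 labelled Lcn2-/-.

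Transcript length went with the LPS difference under the label in complex I but not in the ATP synthase. The median longest annotated transcript was 1790 bases in the 16 genes that rose and 763 bases in the 13 that fell. Across the 36 complex I genes the LPS difference and log2 length had a Pearson r of 0.68 and a Spearman rho of 0.64, and across all 88 members 0.39 and 0.50. Across the 16 ATP synthase genes, 5 of which rose, they were -0.094 and 0.10, and across the 12 common complex IV genes 0.50 and 0.50. Over all genes tested the values were 0.0036 and -0.044. In wild type the values for complex I were 0.33 and 0.39. Length also went with the label difference after LPS in complex I (0.61 and 0.55) and with the interaction (0.56 and 0.52). Across the 12 common complex IV genes these values were 0.59 and 0.41 for the label after LPS, and 0.54 and 0.65 for the interaction. In the ATP synthase they were 0.011 and 0.076, and -0.13 and 0.050. Mean log2 RPKM also went with the LPS difference under the label in complex I, with a Pearson r of -0.54 and a Spearman rho of -0.60. For mean log2 RPKM the values in the ATP synthase were 0.39 and 0.16, and over all 88 members 0.26 and 0.0060. These are descriptions across genes measured in the same libraries, not independent replicates, and the authors' normalization already adjusts for length and GC content.

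Some members share exonic bases with other genes, and the sources used here do not state whether counting used strand. Of the 39 members called in at least 1 contrast, 14 overlap an exon of a gene on the opposite strand, against 29 of all 88 members. The partners described here were chosen after their values were seen. Ndufb5 shares 616 exonic bases with Mrpl47, a mitochondrial ribosomal protein gene at 9.56 RPKM whose interaction was 0.24 (limma adjusted p = 0.015). Atp5j shares 397 with Gabpa, at 3.58 RPKM, whose interaction was -0.16 and not called. Ndufa11 shares 70 with Vmac, at 4.41 RPKM, with an interaction of 0.17 (adjusted p = 0.142). Reads from such pairs cannot be told apart without strand, and processed pseudogenes of these families add the same uncertainty.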

How the data were processed

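RNA-seq of 16 hemi-brain libraries, 4 per group, was analysed from a table deposited by the authors that holds log2 RPKM per Ensembl gene after conditional quantile normalization, a method that models GC content and length, per the deposited table's own name. The build is mm10, per the submitters' processing notes. No aligner, counting program, strand setting or filter is named in the labels or the file. Of 33289 identifiers, 32695 (98.2%) matched the GENCODE vM21 annotation, and 0 columns of sample values were left unused. Promoters are RefSeq's for GRCm38.p6.

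Genes at a log2 RPKM of -1 (0.5 RPKM) or more in at least 3 libraries were kept, which left 17349 and removed 15940. One linear model over the 4 groups was fitted with limma 3.58.1 in R 4.3.3, tested on simulated data first, with Benjamini-Hochberg adjustment over all genes tested and a threshold of 0.05, two-sided. The contrasts were LPS against saline within each label, label within each treatment, and their interaction. Alternatives were no filter, log2(RPKM + 0.5), centred library medians, removal of trends with GC content and length (loess, span 0.3, over the 17157 genes with values), fits of only the groups compared, and each library left out. Depth is unknown without counts. Groups come from the labels; replicate numbers follow the order of the samples and pair nothing.

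Members and lists were chosen with earlier results of these data known. Named members are those called in any contrast, the most abundant uncalled member per complex and the restricted isoform genes. From the other lists, up to 3 called genes with the largest change each way per contrast and the most abundant uncalled gene could be named, along with Lcn2.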

Additional observations from a re-analysis of the deposited data

Results flagged for a closer look

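Among 120 groups of 4 libraries checked for a library far from the other 3, 12 held one, where chance gives about 1 in 20. Saline replicate 4 labelled Lcn2-/- accounted for 8 of the 12. It was the lowest of its group for Ndufs3 (14.5 RPKM), Uqcrc1 (30.1 RPKM), Cox4i1 (184.5 RPKM) and Atp5o (59.9 RPKM), and the highest for Ndufa1 (159.9 RPKM) and Ndufa4 (474 RPKM). It was also the highest for the mean over complex III (6.14 log2 RPKM) and over the common complex IV genes (7.33 log2 RPKM). The other 4 cases fell in 4 libraries. Ndufa4l2 was lowest in wild type LPS replicate 4 (1.43 RPKM), Cox7a1 lowest in wild type saline replicate 1 (3.82 RPKM), Atp5e highest in wild type LPS replicate 3 (48.5 RPKM) and Ndufaf7 highest in LPS replicate 1 labelled Lcn2-/- (13.0 RPKM).

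The LPS response differed between the labels for 9 members by limma's test of the interaction, each time more positive under the label Lcn2-/- than in wild type. In complex I the log2 differences of responses were 0.38 for Ndufa11, 0.37 for Ndufb5, 0.58 for Ndufb7, 0.23 for Ndufb10 and 0.18 for Ndufv2. In complex IV the value for Cox4i1 was 0.20. In the ATP synthase they were 0.28 for Atp5e, 0.22 for Atp5j and 0.33 for Atp5o. Of all genes tested, 3.9% had a called positive interaction and 4.92% a negative one. Only the calls of Ndufa11, Ndufb5 and Atp5j held whichever library was left out and with GC and length trends removed.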

How the results depend on the processing

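Of 62 calls of members over the contrasts, 62 were kept with library medians centred, 62 on the scale of log2(RPKM + 0.5), 53 without a filter, 42 with GC and length trends removed, 40 of the 53 that could be refitted on only the groups compared, and 29 whichever library was left out. With GC and length trends removed, 22 members fell in wild type and 10 rose under the label Lcn2-/-, with 2757 and 3711 of all genes. On only the groups compared, 9 rose under the label, with 2804 of all genes. After LPS 28 were higher and 3 lower in libraries labelled Lcn2-/- than in wild type, with 2088 and 2305 of all genes. The interaction has no such fit. Without a filter, 3 interactions were called, with 418 higher and 487 lower over all 33289 genes. Leaving out 1 library gave 0 higher and 5 to 36 lower in wild type, 10 to 20 higher and 8 to 16 lower under the label, 0 and 0 between labels after saline, 3 to 25 higher and 0 to 1 lower between labels after LPS, and 3 to 18 higher and 0 lower interactions. In a fit at each end of these ranges, 1927 and 3442 of all genes fell in wild type. Under the label 3131 and 3598 of all genes rose, and 4376 and 4584 fell. Between labels after LPS 725 and 2376 of all genes were higher. The fit with 18 interactions had 1046 of all genes higher. The cause of these shifts was not tested.

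The direction turned for 6 LPS estimates, of which Atp5c1 under the label (-0.016 with GC and length trends removed) was a call. With those trends removed the others were 0.0071 for Cox6a2 and -0.019 for Atp5a1 in wild type, and 0.061 for Cox7a1 and 0.017 for Cox8b under the label. Leaving out 1 library in turn gave ranges that crossed 0, under the label, for Uqcrh (-0.057 to 0.066), Cox7a1 (-0.066 to 0.084) and Cox8b (-0.23 to 0.13), and in wild type for Cox6a2 (-0.13 to 0.020) and Atp5a1 (-0.00279 to 0.029). No paired analysis was possible because the sample titles carry no replicate numbers shared between groups. Without counts, depth cannot be set against any of these values.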
